A study of Mus musculus with 90 samples.

Results

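The data describe 150 genes whose transcripts peaked for a short time at the 2-cell stage of mouse development, out of 24422 genes counted in single oocytes and embryos. The genes were chosen by their values in wildtype (WT) libraries with at least 100000 gene counts. For each gene the mean of log2(CPM + 1), where CPM is the count scaled to 1000000 gene counts per library, was taken at each stage, and the score was the 2-cell mean minus the larger of the oocyte and 8-cell means. Genes whose symbols start with Zscan4, Tdpoz, Usp17l, Tcstv, Obox or Hist, and Zfp352, were set aside, and the 150 highest scores were taken. The WT stage pattern is therefore what chose the genes and is given as a description, with no test.

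The study compared 2 maternal genotypes on the CD-1 strain. WT samples came from WT females, and matPlag1KO samples came from females without Plag1, a gene for a zinc finger transcription factor. MII oocytes (ovulated eggs arrested in the second meiotic division) of these females lack Plag1, whereas their embryos were sired by WT males and so carry a paternal WT allele. Females were superovulated. Oocytes were taken at 21 to 23 h after hCG, 2-cell embryos (2c) at 45 to 47 h after fertilisation and 8-cell embryos (8c) at 71 to 73 h after fertilisation, and embryos grew in culture. The 90 libraries, each from 1 oocyte or embryo, were made in 2 pools, called plates A and B here. Of these, 78 entered the tests, as 16 WT and 14 matPlag1KO oocytes, 11 WT and 11 matPlag1KO 2c embryos, and 15 WT and 11 matPlag1KO 8c embryos. The labels do not tie embryos to females, so p-values measure the spread between these embryos only.

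The mouse oocyte stops transcribing before it is ovulated, and the embryo lives at first on maternal RNA. Its own genome is switched on in a minor wave in the zygote and a major wave in the 2-cell embryo, which is called zygotic genome activation. Among the first genes transcribed are many that are read only for hours, often members of mouse gene families that lie in clusters of near-identical copies, and they are switched off again before the 8-cell stage. Some of these genes reappear together in rare cultured embryonic stem cells that are called 2-cell-like.

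Reference promoter sequence was shown for some genes near the top of the ranking, each of which holds the site marked in it. Dnajb14, the gene with the lowest adjusted p among the 150 between genotypes at 2c, was added. The start regions of the copied families could so be set beside a gene of another kind. Each window comes from RefSeq (GRCm38.p6), reads 5′ to 3′ along the gene's own strand and spans 250 bases before and 50 bases after the annotated start. Capitals mark TATAAA in B020004C17Rik, GGATTA, the core site of bicoid-class homeodomain proteins such as the Obox factors, in the next 5, and GGGCGG, the GC box, in Dnajb14, each on either strand. B020004C17Rik (chr14:57014884-57015183, plus strand) had the second highest score.
B020004C17Rik: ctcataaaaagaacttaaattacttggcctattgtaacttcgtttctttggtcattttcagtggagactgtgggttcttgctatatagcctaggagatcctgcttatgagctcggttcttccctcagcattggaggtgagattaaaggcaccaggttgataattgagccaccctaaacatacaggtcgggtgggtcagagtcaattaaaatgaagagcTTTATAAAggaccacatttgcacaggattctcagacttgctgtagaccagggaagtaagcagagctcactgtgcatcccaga
Gm9125 (chr3:94054836-94055135, minus strand), Gm4858 (chr3:93068573-93068872, plus strand) and Gm10696 (chr3:94178144-94178443, minus strand) encode proteins with a BTB domain.
Gm9125: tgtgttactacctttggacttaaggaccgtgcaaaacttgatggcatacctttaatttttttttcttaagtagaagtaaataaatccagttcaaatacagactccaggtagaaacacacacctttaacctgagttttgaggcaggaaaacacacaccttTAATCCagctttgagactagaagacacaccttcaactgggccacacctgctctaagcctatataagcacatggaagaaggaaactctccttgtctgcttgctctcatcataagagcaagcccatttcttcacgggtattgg
Gm4858: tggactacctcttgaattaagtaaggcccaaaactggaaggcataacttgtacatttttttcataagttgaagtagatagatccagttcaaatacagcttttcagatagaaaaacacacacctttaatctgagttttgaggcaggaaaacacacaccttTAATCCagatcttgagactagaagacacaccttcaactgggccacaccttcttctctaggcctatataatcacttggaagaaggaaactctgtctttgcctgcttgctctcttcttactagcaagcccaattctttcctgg
Gm10696: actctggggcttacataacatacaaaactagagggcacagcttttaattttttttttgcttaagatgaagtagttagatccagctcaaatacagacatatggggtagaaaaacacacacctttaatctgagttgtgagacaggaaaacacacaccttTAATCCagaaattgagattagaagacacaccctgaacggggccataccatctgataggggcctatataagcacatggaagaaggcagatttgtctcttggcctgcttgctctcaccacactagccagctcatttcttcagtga
BB287469 (chr12:87816327-87816626, plus strand) and Gm16381 (chr12:87648934-87649233, minus strand) are neighbours in a cluster described with the gene families.
BB287469: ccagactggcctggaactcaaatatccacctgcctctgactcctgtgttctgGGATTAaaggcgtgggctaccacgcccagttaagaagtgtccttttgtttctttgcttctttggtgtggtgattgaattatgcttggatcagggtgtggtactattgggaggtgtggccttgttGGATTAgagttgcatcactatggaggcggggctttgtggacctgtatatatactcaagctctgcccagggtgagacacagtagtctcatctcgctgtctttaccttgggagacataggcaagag
Gm16381: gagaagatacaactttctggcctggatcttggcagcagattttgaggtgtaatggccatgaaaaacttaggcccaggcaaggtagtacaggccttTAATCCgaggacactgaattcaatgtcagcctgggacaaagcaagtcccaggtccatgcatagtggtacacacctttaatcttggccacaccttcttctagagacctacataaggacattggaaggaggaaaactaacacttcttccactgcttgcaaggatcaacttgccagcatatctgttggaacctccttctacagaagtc
Dnajb14 (chr3:137867425-137867724, plus strand) encodes a membrane-bound J-domain co-chaperone of the endoplasmic reticulum.
Dnajb14: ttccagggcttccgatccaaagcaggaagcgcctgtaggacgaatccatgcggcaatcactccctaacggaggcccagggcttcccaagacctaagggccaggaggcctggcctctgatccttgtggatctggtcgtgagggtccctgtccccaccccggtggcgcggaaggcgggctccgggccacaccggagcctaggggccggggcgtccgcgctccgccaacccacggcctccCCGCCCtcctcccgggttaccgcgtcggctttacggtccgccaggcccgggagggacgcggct
TATAAA began 30 bases before the start of B020004C17Rik, with an overlapping match on the opposite strand, and over all windows of the table the most frequent start of this hexamer was 29 bases before the gene start. GGATTA lay on the opposite strand 91 bases before the start in Gm9125 and in Gm4858 and 93 bases before it in Gm10696. The window of Gm10697, which is grouped with these genes below, held no GGATTA. Neither did those of the high-ranking genes Gm12789, Gm13078, Rfpl4b and Oog1, which are not shown. BB287469 held 2 matches, at 198 and 74 bases before the start.

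A promoter window was found for 105 of the 150 genes and for 12916 of the 16511 genes tested. Searched on both strands, GGATTA was present in 13 of the 105 windows (12.4%), against 6.16% over the tested genes and 7.06% over all 32544 distinct windows. GGGCGG was present in 41.9% against 57.4% of tested genes, and the published PLAG1 binding consensus in 19.1% against 26.3%. TATAAA was present in 7.62% against 8.40%, and in a window starting 45 to 20 bases before the start and on the gene's strand in 3 genes (2.86% against 1.75%), which are B020004C17Rik, Gm428 and Phlda2. TCAAGGCCA, the site of the nuclear receptor Nr5a2, was present in 1 window, that of 1700022E09Rik. The median ratio of observed to expected CpG was 0.56 in these windows and 0.714 over the tested genes. These are matches of letters and were not tested, and several of the genes with GGATTA are copies of each other.

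WT scores of the 150 genes ran from 3.27 to 9.19 log2 units, with a median of 3.98. The last genes inside were Hexim1 (3.33), Oaz3 (3.31), Tdp2 (3.30), 9830107B12Rik (3.30) and Hagh (3.27), and the first outside were Sgsh (3.26), Hipk1 (3.26), Sesn2 (3.25), Slc35e3 (3.24) and Eml3 (3.23), so there was no gap at the limit. In WT oocytes 30 of the genes had no count in any of the 16 libraries, and 102 had a mean log2(CPM + 1) under 1. At 8c 62 genes were under 1, and 113 of the 150 had a higher mean at 8c than in oocytes. The median of the genes' mean levels was 0.57 CPM in WT oocytes, 64.7 CPM in WT 2c and 2.39 CPM in WT 8c embryos. Every gene had counts at 2c, and 119 had a count in each of the 11 WT 2c libraries.

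**Figure D1:**
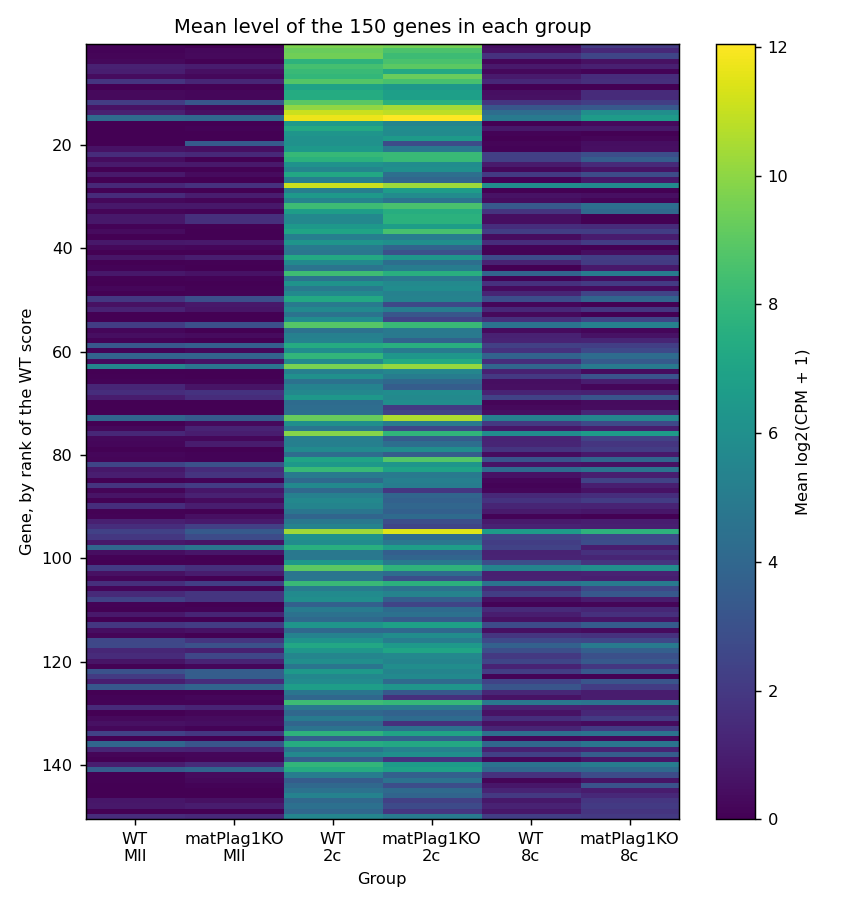
Mean log2(CPM + 1) of the 150 genes (rows, in order of their WT score from rank 1 at the top) in the 6 groups (columns), over libraries with at least 100000 gene counts. Both 2c columns are brighter than the oocyte and 8c columns over nearly all rows, and the median score was 3.98 in WT and 2.94 in matPlag1KO.

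The highest score belonged to Gm4850 (mm9 chr1:31321692-31324906), with 371, 956 and 2019 CPM as its lowest, median and highest WT 2c value. It did not exceed 3.19 CPM in WT oocytes or 4.97 CPM at 8c. B020004C17Rik followed, with 416 to 1099 CPM at 2c and a highest value of 3.82 CPM at either other stage. Rfpl4b, a gene of the ret finger protein-like family, ran from 28.2 to 277 CPM at 2c, with a median of 135 CPM, and had no count in any WT oocyte or 8c library. Atp8b1, which encodes a phospholipid flippase, had a median of 510 CPM at 2c and at most 11.8 CPM at the other stages in WT. The other genes among the 12 highest scores were Gm12789, Gm4971, AU015228, Gm13078, Gm2016, Gm9125, Gm10697 and 6330549D23Rik, with WT 2c medians from 155 CPM (Gm9125 and Gm10697) to 693 CPM (6330549D23Rik). In each of these 12 genes the lowest WT 2c library stood above the highest WT oocyte and 8c library, which a ranking on these same libraries favours.

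The most abundant genes were a different selection. Counts were of 5′ ends of transcripts with molecular identifiers, so levels do not scale with transcript length. Oog1, an oogenesin of the PRAME family, had 1286, 3725 and 6865 CPM as its lowest, median and highest WT 2c value, and kept 40.1 CPM as a median at 8c. Gm16381 had a median of 2565 CPM and Tmem92, a transmembrane protein gene, 1977 CPM. Abt1, a nucleolar protein gene with a part in ribosome production, had 1298 CPM at 2c and 97.6 CPM at 8c. Prex2, which encodes an activator of Rac, differed from the genes above in that it was already present in oocytes, at a median of 48.6 CPM against 659 CPM at 2c. BB287469, Dnajb14 and Gm4850 complete the 8 highest means. Together the 150 genes took 2.21 to 4.06% of all counts in WT 2c libraries, 0.033 to 0.0585% in WT oocytes and 0.0913 to 0.136% in WT 8c libraries.

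By known function 98 of the 150 genes could be placed in 12 groups, made by hand after the genes were known. The families of mouse gene copies came first. Gm9125, Gm10697, Gm4858 and Gm10696 are BTB-domain genes related to Spop, an adaptor of a ubiquitin ligase, and 3 of them are now named as Tdpoz genes in RefSeq (Tdpoz9, Tdpoz7 and Tdpoz8), so they stayed in the ranking under older symbols. Their coding sequences were 83.3 to 86.5% identical. The PRAME family gave Oog1, Gm13078, B020004J07Rik and Pramel1. Gm12789 was not placed in a group, though it was 97.3% identical to B020004J07Rik over 67.9% of the shorter coding sequence. Genes that resemble translation factors were Gm2016, BB287469, Gm2022 and Gm8300, of which BB287469, Gm2016 and Gm8300 had coding sequences 98.2 to 98.9% identical, and Gm8994, which RefSeq names Eif4a3l1 after the exon junction helicase Eif4a3.

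Reads of such copies can be shared. Gm9125 and Gm10697 overlap on chromosome 3 and their counts differed in only 3 of the 90 libraries, and Gm11239 and Gm428 overlap on chromosome 4 and differed in 4, so each pair is close to a single measurement. A cluster of 7 of the genes, Gm8300, Oog1, BB287469, Gm16381, Gm1995, Gm2016 and Gm2022, lay on chromosome 12 (mm9 chr12:88855266-89199120), where the annotated span of Oog1 covers 5 of the others. The values of single genes in this cluster are uncertain for that reason. In all, 28 of the 150 genes lay within 100000 bases of another, and 12 overlapped another. Genes with provisional names made up 25.3% of the 150 and 10.2% of tested genes, and pseudogenes 3.36% and 1.06% of those matched to RefSeq.

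The remaining groups held genes that are best known from other cells. The 18 genes of transcription and chromatin included Yy2 (a retroposed relative of Yy1, median 72.1 CPM in WT 2c), Kdm4d (a histone H3 lysine demethylase, 13.5 CPM) and Hexim1 (an inhibitor of the elongation kinase P-TEFb, 42.0 CPM). The 15 metabolic enzymes and transporters included Slc19a3, a thiamine transporter, at 368 CPM and Upp1, uridine phosphorylase, at 63.8 CPM. The 9 genes of innate immunity and leukocytes included the inflammasome sensor Nlrp3 at 56.4 CPM and the T cell kinase Lck at 28.2 CPM. Among the 9 genes of the cell surface Epcam, an epithelial adhesion molecule, had 175 CPM, and among the 6 neuronal and ciliary genes Cbln1, a secreted organiser of synapses, had 107 CPM and Nefl, the light neurofilament chain, 43.8 CPM. The last 4 groups were RNA processing and mitochondrial translation (10 genes), cell cycle and DNA repair (8), the ubiquitin pathway (6) and chaperones and stress response (4).

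Marker lists were summed in each library as a check of the labels. Summed levels of 18 oocyte markers had medians of 29906, 12619 and 6554 CPM in WT oocytes, 2c and 8c embryos, and none of these markers was at 0 in a WT group. Those of 18 markers of 8c and later embryos were 1088, 505 and 1989 CPM in the same order. In matPlag1KO they were 901, 727 and 984 CPM, so matPlag1KO 8c libraries stood below WT oocytes on this list. This list holds Upp1, which is also among the genes chosen here for a 2c peak, so it is not fully separate from them. Of 18 markers of cumulus and granulosa cells 7 were at 0 in all WT 2c libraries, and their sum reached 1274 CPM in WT and 617 CPM in matPlag1KO 2c libraries. The 9 sperm markers summed to at most 42.4 CPM at 2c. Plag1 had a count in 16 of 16 WT and 3 of 14 matPlag1KO oocytes, but in 1 of 11 WT and 9 of 11 2c libraries labelled matPlag1KO, whose median was 42.9 CPM. At 2c its RNA therefore went against the maternal label, in embryos that carry a paternal WT allele, and the 2c libraries are named by their label below.

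The matPlag1KO libraries were not used to choose the genes, so the stage pattern was tested in them. Per spike-in RNA, which was added in equal amount to each library, 124 of the 150 genes rose from matPlag1KO oocytes to 2c and 2 fell (edgeR quasi-likelihood test, Benjamini-Hochberg adjusted p under 0.05), where 13.5% of all 16511 tested genes rose. From 2c to 8c 99 of the 150 fell and none rose, where 19.5% of all genes fell. Both steps were called in 90 of the 150, against 2.88% of all genes. The median log2 fold change from oocyte to 2c was 3.98 over the 150 genes and −1.42 over all genes, and from 2c to 8c it was −2.29 and 0.30. All 150 passed the filter on low counts, which they could do through the WT 2c group alone.

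Gm4850 rose from no count in any of 14 matPlag1KO oocytes to 483, 811 and 1980 CPM as the lowest, median and highest 2c value. Per spike-in this was at least 662-fold higher than the limit that 3 counts over all these oocytes would set (edgeR adjusted p = 2.16e-22), and by 8c it fell by 5.88 ± 0.55 on the log2 scale (SE). Oog1 rose by 6.08 ± 0.41 on the log2 scale (SE, edgeR adjusted p = 1.09e-22) and then fell by 3.98 ± 0.41. No count was found in matPlag1KO oocytes for 29 of the 150 genes, and with these at the limit of 3 counts the median change from oocyte to 2c was 3.81. Dnajb14 rose by 4.71 ± 0.49 and did not pass from 2c to 8c, with a log2 change of 0.04 ± 0.44 (edgeR adjusted p = 0.97). Its matPlag1KO medians were 232 CPM at 2c and 93.3 CPM at 8c, so the CPM scale and the spike-in scale differed here. The 24 genes called in neither direction in the first step included Snapc3, Ubac1, Thap11, Pms2 and Hagh. Both genes that fell from oocyte to 2c, Rmnd1 (log2 change −1.78 ± 0.72, edgeR adjusted p = 0.0251) and Pebp4 (−1.46 ± 0.60, adjusted p = 0.0274), are described with the comparison of genotypes.

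Measured by the same score, 147 of the 150 genes were above 0 in matPlag1KO, 140 were above 1, and 123 were below their WT score. The scores ran from −0.73 (Pebp4) to 8.02. Since WT values chose the genes, a lower score in the other genotype is what the choice itself favours. Of the 150 highest scores in matPlag1KO libraries, ranked by the same rule, 69 were among the 150 genes. The score rose most from WT to matPlag1KO in Gm8300 (5.08 to 6.65) and Gm8994 (4.80 to 6.36), both translation factor-like, and fell most in Pebp4 (5.92 to −0.73).

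**Figure D2:**
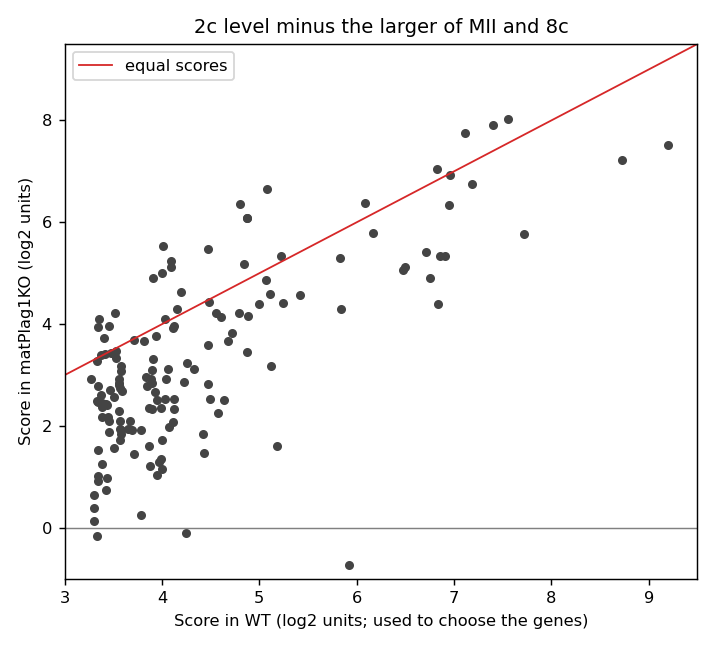
Score of each of the 150 genes (points) in WT, which chose the genes, on the horizontal axis and in matPlag1KO on the vertical axis, both in log2 units. Most points lie below the red line of equal scores (123 of 150) and above 0 (147 of 150).

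At 2c the 150 genes were on the whole lower in libraries labelled matPlag1KO, with few genes past the test. Of the 150, 7 were called lower and 0 higher (edgeR adjusted p under 0.05). The background was 2.62% of all tested genes called lower and 2.3% called higher, so 7 of 150 (4.67%) was close to it. At an unadjusted p under 0.05, 48 of the 150 passed (32%), against 20.5% of all genes. DESeq2 called 11 lower and 1 higher, where it called 586 and 440 over all genes. Without any 1 of the 22 libraries 3 to 12 genes were called lower. The fold change was negative in 115 of the 150, with a median log2 value of −0.48, where 42.2% of all genes were negative and the median was 0.12. The rule selected on high WT 2c values, and this alone moves such a comparison towards lower values in the other genotype.

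Another comparison took the 150 highest scores in the WT libraries of 1 plate and compared genotypes in the other. The libraries compared then had no part in the choice. It still rested on WT libraries alone, which favours genes higher in WT at 2c. The labels do not say whether the plates share females. With genes chosen in plate B and compared in plate A (4 WT against 5 labelled matPlag1KO), 105 of 150 (70%) were negative, with a median of −0.41, against 44.6% and a median of 0.00 over all genes. In the other direction (7 against 6 in plate B), 99 (66%) were negative, with a median of −0.39, against 45.5% and 0.04. Called genes were 0 in plate A, where edgeR called no gene at all at 2c, and 6 lower and 3 higher in plate B, where 2.32% of all genes were called lower and 0.989% higher. The median therefore kept its sign in both plates with genes chosen in the WT libraries of the other plate.

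The mean of log2(CPM + 1) over the 150 genes was also taken in each library. The rule selected on this measure in the same WT 2c libraries, which favours high WT values with little spread. Tested WT 2c libraries ran from 5.97 to 6.33 (mean 6.13 ± 0.11, SD, n = 11). Those labelled matPlag1KO ran from 4.33 to 6.0 (5.43 ± 0.57, SD, n = 11), and 9 of 11 were below the lowest tested WT library. The count of 9 rests on which libraries were tested. WT replicate 4 of plate A, left out with 93953 gene counts, had a mean of 5.41. WT replicates 1 and 7, left out with 4651 and 4432 gene counts, had 2.41 and 2.97. Replicates 3, 7 and 9 labelled matPlag1KO, also left out, had 4.52, 4.89 and 4.91. The lowest 3 tested libraries labelled matPlag1KO were replicates 1, 12 and 13, at 4.33, 4.53 and 5.05. Replicate 1 had 92475 gene counts, the fewest among the 2c libraries tested, 106 of the 150 genes detected, and the highest sum of markers of 8c and later embryos at 2c (2033 CPM, where WT reached 1128 CPM). Replicate 12 had 201590 gene counts, 126 genes detected and the highest sum of oocyte markers at 2c (23508 CPM, where WT reached 18379 CPM). The part of depth and of these markers in the result was not tested. The share of counts on the 150 genes overlapped, at 2.21 to 4.06% in WT and 1.75 to 4.45% in matPlag1KO, and the most abundant genes weigh most in it. The SD of log2(CPM + 1) between 2c libraries was larger in matPlag1KO for 115 of the 150 genes (76.7%), against 55.4% of all tested genes. The same choice favours this count. With genes chosen in the WT libraries of plate B, the mean over them in plate A was 5.74 to 6.02 in the 4 tested WT libraries. It was 4.24 to 5.87 in 5 labelled matPlag1KO, 4 of which were below the lowest of these WT libraries. With genes chosen in plate A it was 5.54 to 5.81 in 7 WT and 4.51 to 5.70 in 6 labelled matPlag1KO libraries of plate B, again with 4 below the lowest WT library. The SD was then larger in matPlag1KO for 62.7% of genes in plate A and 62% in plate B, against 51.2% and 50.7% of all tested genes.

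**Figure D3:**
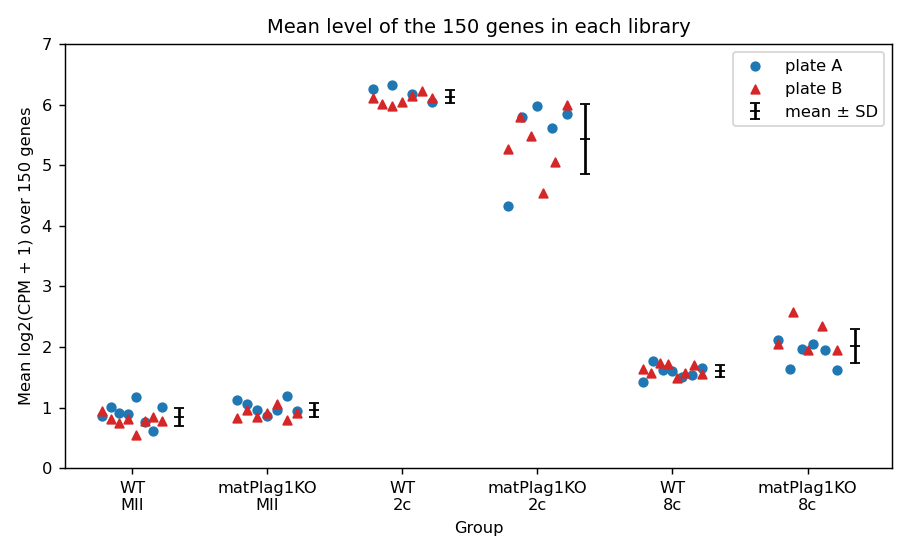
Mean log2(CPM + 1) over the 150 genes in each library (points, circles for plate A and triangles for plate B) by group, with the group mean ± SD beside it. Tested WT 2c libraries lie between 5.97 and 6.33, and those labelled matPlag1KO spread from 4.33 to 6.0. Libraries left out of the tests are not shown.

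The 7 genes called lower at 2c were Dnajb14, Nod1, Ubac1, Snapc3, 1700022E09Rik, Rmnd1 and Zscan5b. Dnajb14 had 468, 996 and 1239 CPM as its lowest, median and highest WT value, and 54.1, 232 and 931 CPM in libraries labelled matPlag1KO. Of these 11 libraries 10 were below the lowest WT library. Its log2 fold change was −1.81 ± 0.37 (SE, edgeR adjusted p = 0.00178). The promoter window of Dnajb14 is shown above.

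Nod1, a cytosolic sensor of bacterial cell wall peptides, ran from 70.8 to 244 CPM in WT (median 166) and from 0 to 118 CPM in matPlag1KO (median 30.2). All 11 matPlag1KO libraries were below the WT median and 8 were below the lowest WT library (log2 fold change −1.98 ± 0.49, edgeR adjusted p = 0.00904). Ubac1, a subunit of a ubiquitin ligase, had WT values of 8.14 to 205.3 CPM (median 77.2) and matPlag1KO values of 0 to 71.0 CPM (median 14.9). Here only 2 matPlag1KO libraries were below the lowest WT library, though all 11 were below the WT median (−2.03 ± 0.50, edgeR adjusted p = 0.00904).

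Snapc3, a subunit of the complex that starts transcription of small nuclear RNA genes, had medians of 147 CPM in WT and 50.9 CPM in matPlag1KO, with ranges of 56.6 to 286 and 11.7 to 146 CPM. Rmnd1, a protein of mitochondrial translation, had 57.0 CPM in WT and 4.96 CPM in matPlag1KO, with ranges of 8.55 to 86.1 and 0 to 48.9 CPM. The uncharacterised 1700022E09Rik had 72.9 and 4.71 CPM, and 5 of the 11 matPlag1KO libraries had no count of it. Zscan5b, a zinc finger gene, had 547 and 219 CPM, with ranges of 290 to 821 and 99.1 to 452 CPM. The ranges overlapped in all 7 genes. Log2 fold changes of these 4 were between −2.37 (Rmnd1, edgeR adjusted p = 0.0383) and −1.19 (Zscan5b, adjusted p = 0.0426).

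**Figure D4:**
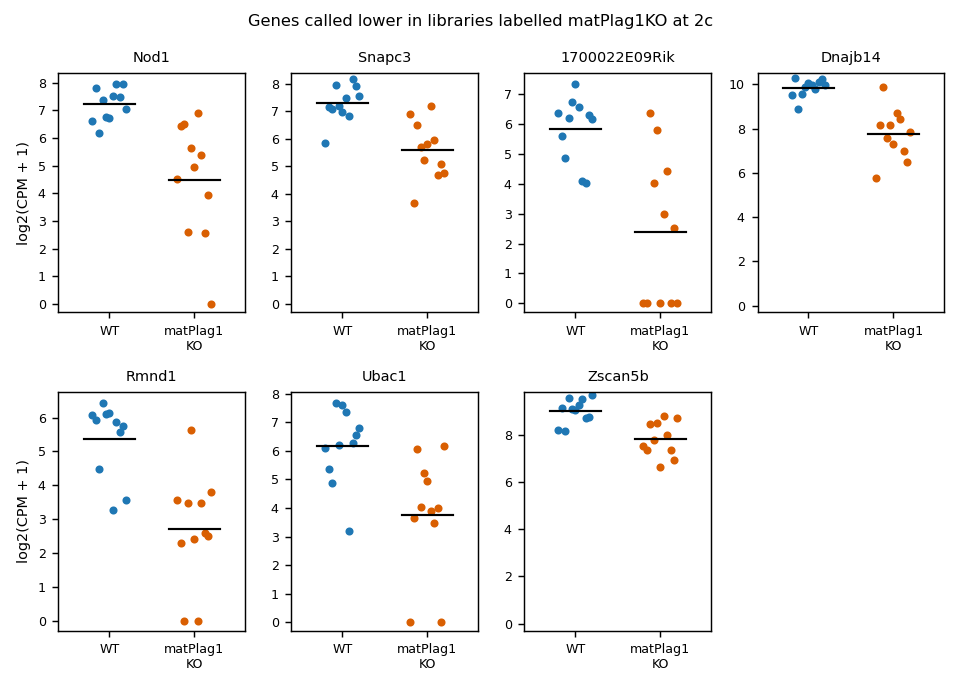
Values of the 7 genes called lower at 2c, as log2(CPM + 1) in each of 11 WT and 11 libraries labelled matPlag1KO (points), with the group mean as a bar. The ranges of the groups overlap in every gene, and Dnajb14 has 10 of 11 matPlag1KO libraries below the lowest WT library.

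Among the function groups, no member of the 3 gene families was called at 2c. All 5 translation factor-like genes were positive, with a median log2 fold change of 0.82, and Gm8994 stood at 129 CPM in WT and 379 CPM in matPlag1KO as medians (1.28 ± 0.46, edgeR adjusted p = 0.0837). Gm4850 is outside this group, though a list of genes like the translation factor Eif1a holds it, and its kinship was not checked. Its log2 fold change was −0.16 ± 0.35. The 4 BTB genes related to Spop had a median of −0.22, with 3 negative, and the 4 PRAME genes of −0.22, with 2 negative. Gm12789, outside the groups but similar to the PRAME gene B020004J07Rik, stood at −0.95 ± 0.36. The median was −0.47 over the 18 genes of transcription and chromatin, of which Snapc3 and Zscan5b were called. It was −0.48 over the 15 metabolic enzymes and transporters, 14 of them negative, and −0.68 over the 9 immune genes, 8 of them negative, where Nod1 was called. It was −0.82 over the 10 genes of RNA processing and mitochondrial translation and −1.08 over the 6 of the ubiquitin pathway, all negative. The highest fold change of all was that of 1500026H17Rik (1.49 ± 0.49, edgeR adjusted p = 0.0566).

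Of 22 lists of pathways, families and markers, those of ribosomes, RNA splicing and the proteasome held the most genes called lower at 2c. Of 85 ribosomal protein genes 26 were called lower and 0 higher, with a median log2 fold change of −1.02, and of 53 genes of nucleolar ribosome production 9 were lower and 0 higher. Of 77 genes of RNA splicing and processing 12 were lower and 0 higher, and of 39 proteasome subunits 6 were lower and 0 higher, with a median of −0.63. Of 44 tested genes known from 2-cell-like cells, 7 of them among the 150, 3 were called lower and 0 higher, with a median of 0.16. Of 345 tested Zfp genes 4 were lower and 4 higher. Of 111 chromatin modifiers 0 were lower and 3 higher. The other 15 lists had at most 4 genes lower and at most 9 higher.

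In oocytes 2 of the 150 genes were called between genotypes, both higher in matPlag1KO, against a background of 0.309% called higher and 0.472% called lower. At an unadjusted p under 0.05 there were 20 (13.3%), against 10.2% of all genes. Pebp4, of the phosphatidylethanolamine-binding protein family (mm9 chr14:70240214-70459725), had no count in any of 16 WT oocytes and 155 counts over the 14 matPlag1KO oocytes, 12 of which had a count. The matPlag1KO values ran from 0 to 38.8 CPM with a median of 15.4 CPM, at least 46.7-fold higher than the limit that 3 counts over all WT oocytes would set (edgeR adjusted p = 4.59e-09). At 2c the order was turned, with a median of 69.9 CPM in WT and 4.96 CPM in matPlag1KO, but the ranges of 39.5 to 179 and 0 to 162 CPM overlapped and the difference did not pass (log2 fold change −1.57 ± 0.58, edgeR adjusted p = 0.0897). At 8c it did not exceed 3.97 CPM in either genotype. Pebp4 thus had no 2c peak in matPlag1KO by the score, as its mean log2(CPM + 1) was 3.48 in oocytes and 2.76 at 2c.

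Abt1 was the other gene called in oocytes. It ran from 0 to 47.6 CPM in WT (median 3.80) and from 2.21 to 159 CPM in matPlag1KO (median 9.94), a log2 fold change of 1.65 ± 0.40 (SE, edgeR adjusted p = 0.0197), with overlapping ranges. At 2c its matPlag1KO median was 2336 CPM against 1298 CPM in WT, which did not pass (1.04 ± 0.40, edgeR adjusted p = 0.103). The rule selected on low WT oocyte and 8c values as well, so higher values in matPlag1KO at these stages are favoured by the choice.

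At 8c 11 of the 150 genes were called, all higher in matPlag1KO, against 1.21% of all genes called higher and 0.527% called lower. At an unadjusted p under 0.05 there were 28 (18.7%), against 14.3% of all genes. The fold change was positive in 100 of the 150, with a median of 0.51, where the median over all genes was 0.00. With 4 genes that had no count in 1 genotype at the limit of 3 counts, and 9 at or under it in both left out, the median was 0.53. The mean of log2(CPM + 1) over the 150 genes was 1.43 to 1.77 in WT (1.61 ± 0.10, SD, n = 15) and 1.63 to 2.58 in matPlag1KO (2.02 ± 0.27, SD, n = 11). Their share of all counts averaged 0.107% ± 0.015 (SD, n = 15) in the WT libraries, and the matPlag1KO libraries averaged 0.179% ± 0.054 (SD, n = 11), both far under the level at 2c. Calls fell from 11 to 5 without matPlag1KO replicate 11, which had the highest mean over the 150 genes. With genes chosen in one plate and genotypes compared in the other, 57.3% were positive in plate A and 65.3% in plate B, where all genes gave 40% and 49.7%. The medians were 0.19 and 0.58, against −0.08 and 0.00 over all genes. In that comparison 0 genes were called in plate A, where 0.0265% of all genes were called higher, and 2 in plate B, where 0.251% were.

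The highest fold changes at 8c were those of Gm15455, Pramel1 and AA543401. Gm15455, a pseudogene, had a count in 2 of 15 WT and 7 of 11 matPlag1KO libraries, with highest values of 2.97 and 29.9 CPM (log2 fold change 3.71 ± 0.67, edgeR adjusted p = 0.000349). Pramel1, of the PRAME family, had a count in 6 of 15 and 9 of 11 libraries, with highest values of 3.78 and 52.7 CPM (3.63 ± 0.69, edgeR adjusted p = 0.000752). AA543401 had no count in WT and 8 counts over 3 matPlag1KO libraries, at least 4.78-fold higher than the limit of 3 counts over the WT libraries. These are low counts, and the ranges of the genotypes overlapped in each gene because some matPlag1KO libraries stood at 0.

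Of the more abundant genes, Oog1 had 2.97, 40.1 and 121 CPM as its lowest, median and highest WT 8c value and 54.2, 74.9 and 355 CPM in matPlag1KO, where all 11 libraries were above the WT median and 4 were above the highest WT library. Its log2 fold change was 1.35 ± 0.35 (SE, edgeR adjusted p = 0.0247). Gm16381 had medians of 26.9 and 58.4 CPM and Gm1995 of 3.49 and 16.7 CPM, and both lie in the chromosome 12 cluster with Oog1. The BTB genes Gm9125, Gm10697 and Gm4858 were called too, of which the first 2 are close to a single measurement. Gm4858 reached 204.9 CPM in matPlag1KO and 23.1 CPM in WT. Gm4850 and 1500026H17Rik complete the 11. Of the BTB and PRAME groups, made by hand after the genes were known, 5 of 8 genes were among the calls. Over the 150 genes it was 11, and over all genes 1.21% were called higher. Gm9125 and Gm10697 are both counted in the 5, as is Oog1 of the cluster with uncertain values. Of the translation factor-like genes, with Gm8300 at 0 in every 8c library, 0 of 5 were called. Gm4850, called here, was not counted in the last of these groups.

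**Figure D5:**
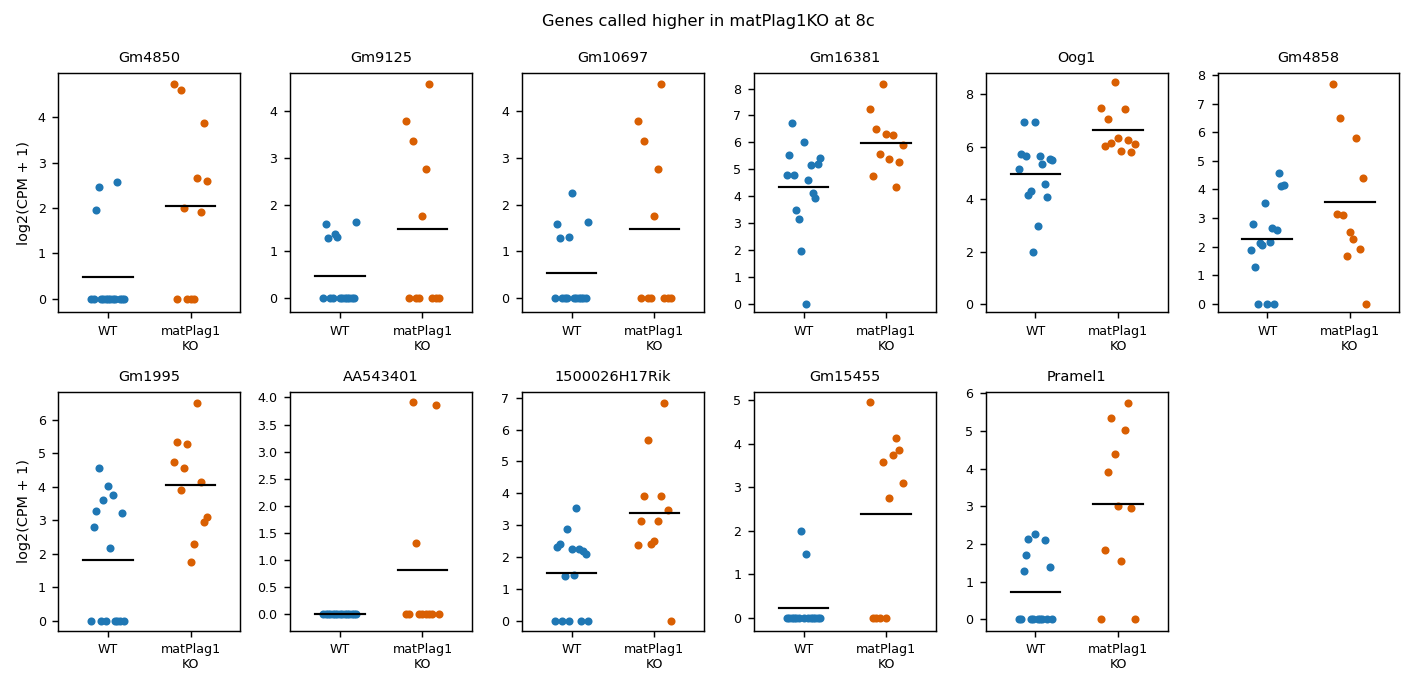
Values of the 11 genes called higher at 8c, as log2(CPM + 1) in each of 15 WT and 11 matPlag1KO libraries (points), with the group mean as a bar. Many WT points lie at 0, and the ranges of the genotypes overlap, with 7 of 11 matPlag1KO libraries above the highest WT library for Gm15455 and for Pramel1.

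Beside these calls, markers of 8c and later embryos were lower in matPlag1KO at 8c. Their list shares Upp1 with the chosen genes, and Upp1 itself was not called at 8c (log2 fold change 1.13 ± 0.69, edgeR adjusted p = 0.473). Of 16 tested markers 4 were called lower and 0 higher, with a median log2 fold change of −0.83, and their summed level had a median of 1989 CPM (range 1004 to 3449) in WT and 984 CPM (463 to 3249) in matPlag1KO. Oocyte markers summed to medians of 6554 and 6125 CPM. The part of these markers in the higher 8c values of the 11 genes was not tested. In bulk samples of whole embryos, fewer cells with a transcript and less of it per cell cannot be told apart.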

How the data were processed

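Single oocytes and embryos were profiled from the 5′ end of each transcript, with molecular identifiers in the primers and ERCC RNA as spike-in. The deposited table holds counts per gene that the authors made by mapping to mm9 with TopHat and counting with HOMER on UCSC gene models. Versions are not given in the sources used here. It covers 24422 genes, 92 spike-in rows and 90 libraries, all matched to labels. Counts were used as deposited, without spike-in rows. A gene counted as expressed when 5 or more libraries held 1 CPM or more of it, and the 12 libraries whose median over such genes was below 1 CPM entered no test. No 2 libraries were identical.

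Genotypes were compared with edgeR 4.0.16 (glmQLFit, glmQLFTest, TMM) and stages of matPlag1KO with the spike-in total as library size. Each fit held all 6 groups and the 16511 genes that passed this limit in the libraries kept, and p-values were adjusted by the Benjamini-Hochberg method over all of them. The SE of an edgeR fold change was derived as its absolute log2 value over the square root of the quasi-likelihood F statistic. The steps were tested on simulated data. In these, spike-in totals were in proportion to gene counts, so a change of total RNA between stages was not simulated. Depth of tested 2c libraries was 92475 to 256529 counts, so 1 count is worth several CPM and a value of 0 limits little. Alternatives were other scalings, filters, sets of libraries, plate, DESeq2 1.42.0 and a stricter threshold. Leaving out each 2c or 8c library in turn, and choosing genes in one plate for the oocyte and 8c comparisons and the means per library in the other, were added after seeing the data.

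The 150 genes, the gene lists and the tests were chosen with earlier results of these data known. Named are the 12 highest scores, the 8 highest WT 2c means, the called genes and the genes at the limit of the ranking. Other examples of function groups were named after their values were seen. Coding sequences (GENCODE vM1) were compared with BLAST+ and RefSeq was used for current names (149 of 150 matched) and promoters, taking the first window of each gene. The PLAG1 consensus is a GC-rich core followed by a G cluster. The values of 1 gene are not reported here.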

Additional observations from a re-analysis of the deposited data

Results flagged for a closer look

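In 12 groups of 4 to 8 libraries, each of 1 stage, genotype and plate, the lowest and highest library were set against the others by their mean log2(CPM + 1) over the 150 genes, a check that chance alone meets in about 1 of 20 groups. It singled out 1 library, matPlag1KO 2c replicate 1 of plate A, at 4.33. Without it 6 genes were called lower and 1 higher at 2c, and the median log2 fold change was −0.48.

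The 6 2c libraries that were left out of the tests, with 4432 to 93953 gene counts, also held the 150 genes at a 2c level. The genes took 2.69% (replicate 1), 4.17% (replicate 4) and 3.90% (replicate 7) of counts in the WT libraries and 2.87% (replicate 3), 4.31% (replicate 7) and 3.30% (replicate 9) in those labelled matPlag1KO, against 0.033 to 0.0631% in oocytes.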

How the results depend on the processing

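The median log2 fold change at 2c was the only signed value followed through all these settings, and it stayed negative. The choice of genes on WT 2c values favours this sign in each setting, also where genes were chosen in the other plate. Over all results, most of them counts, 67 of 95 values under other settings were close to the reported ones. In each "x of y" at 2c below, y counts all tested genes called in that direction and is not the number of genes chosen. Genes called lower at 2c (7 of 433 as reported) numbered 1 of 94 with spike-in scaling, 12 of 361 with only the 2 groups compared, 0 of 0 in plate A alone and 0 of 0 when chosen in plate B and compared in plate A, 11 of 586 with DESeq2 and 3 of 125 at an adjusted p under 0.01. Genes called higher at 2c (0 of 379 as reported) numbered 1 of 400 with median-ratio scaling, 1 of 356 with libraries of at least 100000 counts, 1 of 417 with those of at least 1000, 1 of 403 with plate as a term, 1 of 440 with DESeq2, 2 of 150 in plate B alone, 3 of 150 when chosen in plate A and compared in plate B, and 5 of 402 with only the 2 groups compared. The median at 2c was −0.33 with spike-in scaling and −0.62 in plate B alone. Calls at 8c (11), with all genes given as higher and lower, numbered 7 with only the 2 groups (235 and 160), 0 in plate A alone (4 and 2), 2 in plate B alone (38 and 8), 0 and 2 in these plates with genes chosen in the other, and 3 at an adjusted p under 0.01 (54 and 10). Calls in oocytes (2) numbered 1 with only the 2 groups (19 and 27) and at an adjusted p under 0.01 (22 and 36), and 4 in plate A alone (80 and 58). Genes called in both steps in matPlag1KO (90) numbered 57 in plate B alone. Of the 150 genes 98 were chosen again with a pseudocount of 10 and 69 from matPlag1KO libraries. The cause was not tested in any of these.

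Leaving out 1 library gave 3 to 12 genes lower, 0 to 3 higher and a median of −0.56 to −0.42 at 2c, and 5 to 11 calls at 8c. Genes lower at 2c were 3 without matPlag1KO replicate 2, 8, 12 or 13 or WT replicate 6, 12 without matPlag1KO replicate 4 and 11 without WT replicate 5. Calls at 8c were 5 without matPlag1KO replicate 11 and 7 without replicate 1 or 4. Wells shared between plates gave 14 oocyte pairs of opposite genotype. Their deviations from the group means correlated by −0.04 to 0.80 over 9886 genes. The labels tie these pairs by well position only, and the source of the correlation was not tested. In a fit that took the well as a replicate block beside plate, 3 of the 150 genes were called in oocytes, all higher, where 639 (4.92%) of 12978 genes were higher and 153 (1.18%) lower.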
